A study of Mus musculus with 2 samples.

Results

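Immediate early genes and the flow-responsive Krüppel-like factors are described here in 2 pools of mouse embryonic vessels, internal carotid arteries in the one and external carotid arteries in the other. The set was chosen by name and holds 10 genes, Fos, Fosb, Jun, Junb, Egr1, Ier2, Atf3, Dusp1, Klf2 and Klf4, out of 18193 genes named on the array, and all 12 probe sets annotated to them were used. Vessel segments were microdissected from 22 ICR embryos at E13.5, mid-gestation, and RNA of each vessel went through 2 rounds of oligo-dT primed amplification onto 1 Affymetrix array. Both pools share strain and age, neither was treated, and the labels do not say whether each embryo gave both vessels. The study is about endothelin as a cue for sympathetic axons that follow these branches, and the arrays compare what the branches express. No replicate was made, so each signal is a single measurement of a pool and no p-value is given.

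Immediate early genes are transcribed within minutes of a stimulus, without new protein synthesis, through factors already present in the cell such as the serum response factor and CREB. Fos and Jun family proteins pair through leucine zippers to form AP-1, Egr1 is a zinc finger activator, and Dusp1 is a phosphatase that switches the upstream MAP kinases off again. Klf2 and Klf4 are induced in endothelium by laminar shear stress through the kinases Mekk3, Mek5 and Erk5 and the Mef2 factors, and they raise anti-thrombotic and anti-inflammatory genes. Immediate early transcripts are also known to be induced while tissue is being dissected.

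The internal pool means the internal carotid arteries and the external pool the external carotid arteries throughout. The members were mostly brighter in the external pool, with Klf2 showing the widest measured difference and Klf4 the 1 measured member lower there. Klf2 was 2.20-fold, Ier2 1.85-fold and Dusp1 1.78-fold higher in the external pool, while Klf4 was 1.33-fold higher in the internal pool. Of the 8 members with a ratio or a lower bound, 7 lay above 0 on the log2 scale of external over internal signal, the side on which 56.1% of the 12408 genes tested also lay. The median log2 ratio was 0.43 over these 8 members and 0.06 over all genes tested. Only Klf2 reached 2-fold, which 2.1% of all genes did in the external direction, and no member reached 2-fold in the internal direction, which 1.47% of all genes did. At 1.5-fold, 3 members were higher in the external pool, against 9.2% of all genes, and none in the internal pool, against 5.38%. In dissected bulk tissue, fewer cells of a type and less RNA per cell cannot be told apart, and this holds for each difference given here.

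Signals under an array's median, 47.5 in the internal and 52.3 in the external pool, were treated as too low to read. These medians are called floors. A ratio was taken where both signals reached their floor, a lower bound where one did, and none where neither did. Fosb and Junb lay under both floors, Atf3 under the internal one, and the other 7 members had a ratio. As a technical yardstick, log2 ratios of probe sets of the same gene had a pooled standard deviation of 0.34 over 4315 genes. It describes probe differences on this pair of arrays and not the spread between embryos or dissections. Both arrays had a 2% trimmed mean signal of 150. Signal was weighted to transcript 3' ends on both, with 3' over 5' ratios for Actb of 4.41 in the internal and 3.53 in the external pool, and for Gapdh of 8.39 and 7.09.

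**Figure D1:**
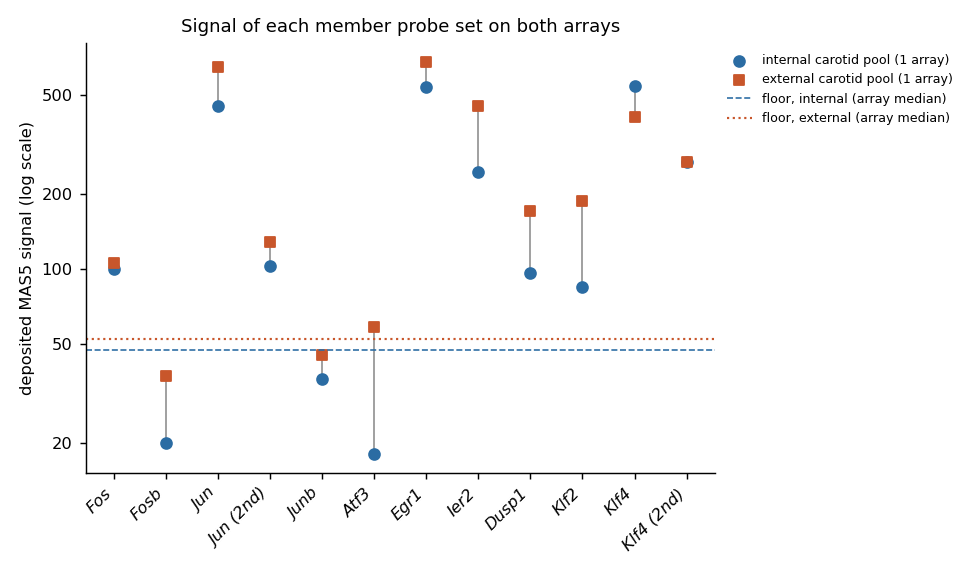
Deposited signal, on a log axis, of each of the 12 member probe sets in the internal (circles) and external (squares) carotid pool, 1 array each, with each array's floor as a line; "2nd" marks a gene's dimmer probe set. The external signal is the higher one for 10 probe sets and the lower one for both Klf4 probe sets, and Fosb and Junb lie under both floors.

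Of the Fos proteins, which bind DNA only when paired with a partner such as Jun, Fos was near equal between the pools and Fosb was too dim to compare. Fos, read by probe set 1423100_at, had a signal of 99.8 in the internal and 106.4 in the external pool. The log2 ratio of 0.09 was well under the spread between probe sets, and 46.0% of all genes tested had a ratio at least as high. It was -0.01 after loess scaling, so Fos had no settled direction. Fosb, a close relative of Fos, read 20 internal and 37.2 external with probe set 1422134_at. Both signals were under the floors, so no fold was taken.

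Among the Jun proteins, the DNA-binding partners of Fos, Jun was the one above the floors. Its brighter probe set, 1448694_at, read 453.6 internal and 648.1 external, 1.43-fold higher in the external pool with a log2 ratio of 0.51. The dimmer one, 1417409_at, read 103.4 and 128.2, a log2 ratio of 0.31, so both probe sets gave the higher signal in the external pool. The brighter probe set exceeded the spread between probe sets and the dimmer one did not. Junb, which often counters Jun in growth control, read 36.2 internal and 45.2 external with probe set 1415899_at and lay under both floors. Atf3, a stress-induced bZIP protein that can pair with Jun, read 18.2 internal and 58.8 external with probe set 1449363_at. Only the external signal reached its floor, by little, which gave at least a 1.24-fold difference in the external direction, a log2 bound of 0.31. With no floor its log2 ratio would be 1.69, on an internal signal under the floor.

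Egr1, the zinc finger activator, read 536.5 internal and 677.3 external with probe set 1417065_at. The difference was 1.26-fold, and the log2 ratio of 0.34 was about equal to the spread between probe sets. Ier2, a small nuclear protein made early after growth factor addition, read 245.0 internal and 452.6 external with probe set 1416442_at. Its log2 ratio was 0.89, which 3.05% of all genes tested reached or exceeded. When probe sets with a ratio were put in 10 equal bins by mean signal, the bin of Ier2 held 2061 with a median log2 ratio of 0.02, and 1.80% of them had a ratio at least as high. Across all 10 settings tried, the log2 ratio of Ier2 stayed between 0.79 and 0.89.

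Dusp1, which dephosphorylates p38, Jnk and Erk, read 96.3 internal and 171.8 external with probe set 1448830_at. Its log2 ratio was 0.84, and 3.47% of all genes tested had one at least as high. Under a 75th percentile floor its internal signal fell under the floor, leaving a lower bound of 0.24. Dusp1 and Ier2 thus differed in the same direction and by similar amounts, short of 2-fold.

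Klf2, the shear-induced factor of endothelium, read 85.2 internal and 187.1 external with probe set 1448890_at, its single probe set. The log2 ratio was 1.13, or 3.35 times the spread between probe sets of a gene. A ratio that high was reached by 1.45% of all genes tested and by 1.41% of the 2060 probe sets in its bin of mean signal, where the median was 0.11. Klf2 was past 2-fold under 8 of 10 settings. It was not with a pseudocount at the floor, which gave a log2 ratio of 0.85, or under a 75th percentile floor, where only a lower bound of 0.36 remained because the internal signal lay under that floor.

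Klf4, the paralogous factor, is made in flow-exposed endothelium but also in epithelia and in smooth muscle cells that lose their contractile state. Its brighter probe set, 1417395_at, read 545.0 internal and 409.6 external, a log2 ratio of -0.41. The other, 1417394_at, read 270.4 and 268.6, a log2 ratio of -0.01. The lower external level was thus seen with the brighter probe set and not with the other. Klf2 and Klf4, by their brighter probe sets, differed by 1.55 in log2 ratio.

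**Figure D2:**
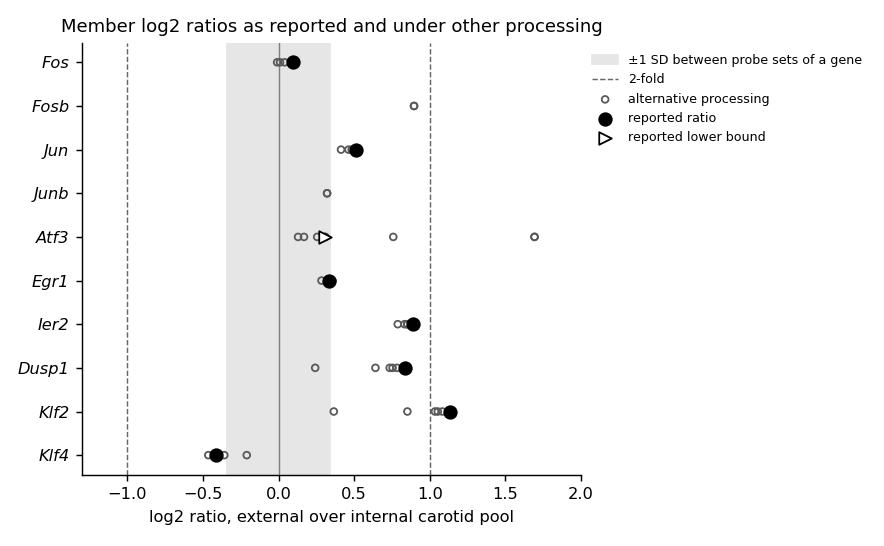
Log2 ratio of external over internal carotid signal for each member by its brightest probe set, as reported (filled circle; triangle for a lower bound) and under the alternative settings that gave a value (open circles). The shaded band is the standard deviation of 0.34 between probe sets of a gene to either side of 0, and Klf2 at 1.13 is the reported value past the dashed 2-fold line.

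**Figure D3:**
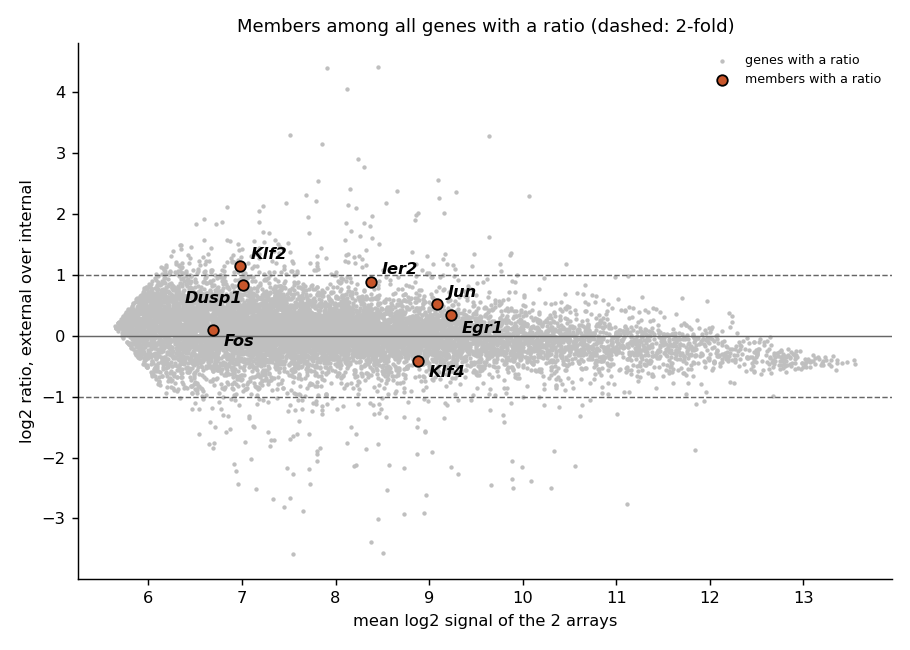
Log2 ratio against the mean log2 signal of both arrays for all genes with a ratio (grey) and the 7 members with one (coloured and named). Klf2, Ier2 and Dusp1 lie near the upper edge of the cloud at their signal, Fos near its middle, and Klf4 in its lower part.

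Promoters are shown for Klf2, Dusp1 and Jun, which are only some of the members with a higher external signal. That of Klf4 is set beside them as the measured member that was lower in the external pool. RefSeq promoter windows (GRCm38.p6) were used for 8 of the 10 members, all but Egr1 and Ier2. Members were matched by symbol and a filter on chromosome was also applied, so a missing window need not mean an unmatched symbol. The 250 bases before the annotated start were searched on both strands. The patterns were the cAMP response element TGACGTCA, its part TGACGT, which lies inside it, the AP-1-like site TGACATCA, the GC box GGGCGG, the MEF2 box and the CArG box bound by serum response factor. Capitals mark TGACGT, TGACGTCA, TGACATCA and the MEF2 box, and each sequence is the gene's own strand, 5′ to 3′. The Klf2 window is chr8:72318812-72319061 on the plus strand, that of Dusp1 chr17:26508473-26508722, of Jun chr4:95052223-95052472 and of Klf4 chr4:55532476-55532725, the last 3 on the minus strand.
Klf2: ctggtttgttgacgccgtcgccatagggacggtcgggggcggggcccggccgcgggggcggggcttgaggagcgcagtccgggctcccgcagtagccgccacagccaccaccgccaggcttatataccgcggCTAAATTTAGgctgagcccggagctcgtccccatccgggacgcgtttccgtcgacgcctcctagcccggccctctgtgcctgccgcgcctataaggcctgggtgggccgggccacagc
Dusp1: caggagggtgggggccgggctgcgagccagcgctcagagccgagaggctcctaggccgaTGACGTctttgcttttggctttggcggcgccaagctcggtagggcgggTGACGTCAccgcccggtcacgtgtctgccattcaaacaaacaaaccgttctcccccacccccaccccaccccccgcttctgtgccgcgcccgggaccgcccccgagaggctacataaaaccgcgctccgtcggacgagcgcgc
Jun: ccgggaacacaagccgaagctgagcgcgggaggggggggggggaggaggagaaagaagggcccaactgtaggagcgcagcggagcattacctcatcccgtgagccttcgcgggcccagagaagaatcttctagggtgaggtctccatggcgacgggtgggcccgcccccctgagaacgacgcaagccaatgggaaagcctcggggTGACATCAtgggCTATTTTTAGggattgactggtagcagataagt
Klf4: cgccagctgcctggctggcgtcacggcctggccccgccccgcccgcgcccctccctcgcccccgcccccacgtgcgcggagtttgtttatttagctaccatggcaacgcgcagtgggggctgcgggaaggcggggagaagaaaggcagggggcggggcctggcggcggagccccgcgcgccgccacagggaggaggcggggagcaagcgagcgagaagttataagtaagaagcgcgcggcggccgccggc

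Counting the last base before the start as -1, the Klf2 window held a MEF2 box at -118 to -109, the type of element through which Erk5 signalling is known to act on this gene. The Dusp1 window held TGACGTCA at -143 to -136 and a further TGACGT at -191 to -186. The Jun window held TGACATCA at -45 to -38 and a MEF2 box at -33 to -24. The Klf4 window held none of the capitalised patterns, and neither did the windows of Fosb and Junb, which are not printed. Of the 8 member windows, 3 held TGACGT (Atf3, Dusp1 and Fos), against 6.47% of the 32851 windows in the table, and 3 held a MEF2 box (Atf3, Jun and Klf2), against 1.69%. TGACGTCA was in 1 member window against 1.55% and TGACATCA in 1 against 2.93%. The GC box was in 7 of the 8, all but Junb, against 32.7%, and the CArG box in none, against 1.47%. These counts cover only the 250 bases before the start and leave out Egr1 and Ier2. Sites further upstream, or in the promoters of those genes, were not searched. The GC content of the 4 printed windows ran from 61.2% for Jun to 74.0% for Klf4, with a median of 52.4% over all windows. A match describes the letters and not binding in these vessels.

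The remaining genes of the pathways were taken from lists of related genes. Highest and lowest refer to the values given here, and a gene known by a lower bound could lie further out. Other AP-1 and ATF subunits were centred near 0, with a median log2 ratio of -0.04 over 15 measured genes, of which 6 lay above 0. None was 2-fold higher in the external pool, and Batf3, a dendritic cell and lymphocyte factor, was 2.01-fold higher in the internal pool (157.8 against 78.7). That call was lost with a pseudocount (log2 ratio -0.65) and with the higher floor (bound -0.04). Maff, a small Maf protein, had a log2 ratio of -0.62, and Crem, a cAMP-responsive factor, and Jdp2, a repressor of AP-1, had the highest at 0.36 and 0.20.

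Other immediate early genes had a median of 0.04 over 24 measured genes, with 13 above 0 and 11 below. Plk2, a serum-inducible kinase, was the 1 gene past 2-fold, with a signal of 194.3 internal and 479.2 external, 2.47-fold, though its second probe set had a log2 ratio of 0.50 and the median of both, 0.90, fell short of 2-fold. Klf10, a factor induced by TGF-beta, followed at 0.70. The lowest were Nfkbiz, an inflammatory co-regulator, at -0.84 and Socs3, a brake on cytokine signalling, at -0.37. Of the 30 genes listed, 6 lay under both floors.

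Upstream kinases and serum response factors, which relay the stimulus, had a median of 0.13 over 13 measured of 18 listed genes. By brightest probe set none reached 1.5-fold in either direction. Further probe sets ran from -0.03 to 1.19 for Elk4, from 0.20 to 0.76 for Mapk8 and from 0.33 to 0.66 for Elk3. They ran from -0.32 to 0.39 for Braf, and that of Srf read -0.27. By brightest probe set, the Jnk kinase gene Mapk8 was highest at 0.48. Mrtfb, a coactivator of serum response factor, was next at 0.36, with its second measured probe set at -0.45. Elk1, a serum response cofactor under the internal floor, had a bound of 0.36 and may lie above both. Map2k1 and Mrtfa were lowest at -0.27 and -0.16. By brightest probe set, dual specificity phosphatases and the Egr repressors Nab1 and Nab2 had a median of 0.16, with 8 of 9 above 0. None was past 2-fold by that reading, though Dusp8, at 0.22, had a further probe set at 1.44. Further probe sets read 0.54 for Dusp7 and from -0.37 to 0.003 for Dusp3. Dusp2, like Dusp1 a nuclear phosphatase, was highest at 0.70 and Dusp16 next at 0.38, while Dusp10 and Dusp6 were near equal at 0.01 and -0.02.

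The flow pathway was examined because Klf2 stands at its end. Flow sensors and the Erk5 arm had a median of -0.06 over 15 measured genes, 6 of them above 0. By brightest probe set none was at 1.5-fold in either direction, though a further probe set of Pdcd10 read 0.67. The highest were the endothelial junction gene Cdh5 at 0.58 and the mechanosensor Plxnd1 at 0.18. The lowest were Mef2c at -0.52 and Mapk7, which encodes Erk5, at -0.35, and further probe sets of Mef2c ran from -0.70 to 0.96. By brightest probe set, the 7 kinases and Mef2 factors of this list, the steps between the sensors and Klf2, ran from -0.52 to 0.05. Of these, 5 lay below 0, and Map3k2 was known by a bound alone, at -0.01. Other probe sets ran from -0.42 to 0.40 for Map3k3 and from -0.38 to 0.19 for Map2k5. They ran from -0.07 to 0.50 for Mef2a and from 0.13 to 0.31 for Mef2d.

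Genes known as endothelial targets of Klf2 and Klf4 had a median of 0.14 over 16 measured genes, with 10 above 0. The list mixes targets these factors raise, such as Thbd and Nos3, with ones they hold down, such as Edn1 and Vcam1, so its median has no single meaning for their activity. Thbd, the thrombomodulin gene and a classic Klf2 target, read 159.1 internal and 471.0 external. It was 2.96-fold higher in the external pool and past 2-fold under all 10 settings. By brightest probe set Thbd was the 1 target past 2-fold. Slco2a1 was at 0.68 by its brightest probe set and 1.11 at its other measured one. Ass1, which supplies arginine for nitric oxide synthesis, was measured in the external pool alone and had a bound of 0.76. Aqp1, a water channel gene, and Cav1, the main gene of caveolae, were lowest at -0.57 and -0.35. Vcam1, a leukocyte adhesion gene of the second kind, chosen for mention after its values were seen, had a log2 ratio of 0.21, with 0.56 and 1.07 at further probe sets. At 1.5-fold, 4 of the 16 were higher in the external pool and none in the internal pool, against 9.2% and 5.38% of all genes.

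No other Krüppel-like factor measured here reached the ratio of Klf2. Their median was -0.08 over 11 measured genes, and it was 0.08 with the median over probe sets. Klf16 was highest at 0.87 and Klf17 next at 0.28. Klf14 and Klf5, an epithelial and smooth muscle factor, were lowest at -0.88 and -0.70, the latter with a further probe set at 0.03.

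**Figure D4:**
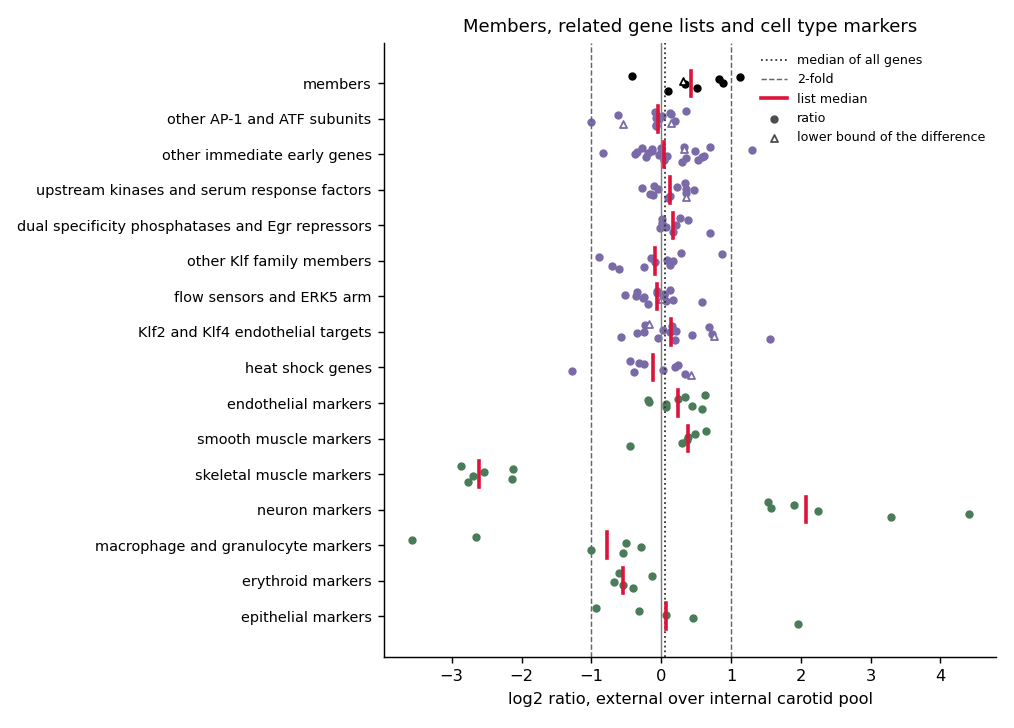
Log2 ratio of external over internal carotid signal for each measured gene of the members (black), the 8 related lists (purple) and the 7 cell type marker lists (green), with list medians as red bars and lower bounds as open triangles. The members' median is 0.43 and the medians of the related lists lie between -0.11 and 0.16, while the neuron and skeletal muscle markers lie past 2-fold on opposite sides.

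Cell type markers differed between the pools alongside the members, and their part in these results was not tested. Endothelial markers, in which Klf2 is normally found, had a median log2 ratio of 0.24 over 9 of 10 genes, with 7 above 0 and a summed signal of 3774 internal and 4142.5 external. Pecam1, an endothelial adhesion gene, lay under both floors. Smooth muscle markers had a median of 0.38 over 6 genes, 5 of them above 0, with a summed signal of 12493 internal and 10763 external, led by the bright Acta2 at -0.45. All 6 neuron markers were past 2-fold in the external direction, with a summed signal of 780.3 internal and 4731 external, though Tubb3 and Elavl4 fell short of 2-fold under a 75th percentile floor. All 6 skeletal muscle markers were past 2-fold in the internal direction, with 11413 internal and 2008 external.

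Blood cell markers read lower in the external pool. The 6 macrophage and granulocyte markers had summed signals of 12539 internal and 7419 external, and 3 were past 2-fold in the internal direction. The 5 erythroid markers on the array had summed signals of 26930 internal and 19455 external and a median of -0.54, which was -0.12 after quantile normalization and -0.18 after loess. Embryonic erythroid cells are known to use Klf2 as well. Epithelial markers, among which Klf4 is often found, had a median of 0.07 over 5 of 6 genes, which was -0.32 with the median over probe sets, and Cdh1 lay under both floors. Their summed signal was 896.2 internal and 1350.5 external, and 726.7 and 689.6 without Epcam, an adhesion gene read at a log2 ratio of 1.96 by a probe set open to cross-hybridisation. Krt14 and Krt5 were at -0.94 and -0.32. No marker of these lists had a signal of 0.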

How the data were processed

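RNA of 1 internal and 1 external carotid artery pool was measured on 1 array each. The authors deposited linear intensities, 1 per probe set, and the submitters' processing notes name GCOS 1.4 and MAS5. Of 45037 non-control probe sets, 34945 had 1 gene in the platform annotation, and symbols were updated through RefSeq gene numbers. A gene was read by its brightest probe set (mean log2 signal), and all member probe sets are given.

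The ratio is external over internal on the log2 scale. A bound sets the measured side against the other array's floor, and one that opposed the measured side was dropped. With 1 array per pool, precision is limited by their number. The named genes are all members and the 2 highest and 2 lowest genes of each related list. Some further genes were named after their values were seen, for a bound or for their other probe sets. The members and lists were chosen with earlier results of these data known. The steps were tested on simulated data, in Python 3.11.15 with numpy 2.4.6, pandas 2.3.3 and statsmodels 0.14.6.

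Alternatives concerned scaling (centring, quantile normalization, loess with a span of 0.3), the floor (25th percentile, 75th percentile, none, or added as a pseudocount), probe sets (their median, or without those open to cross-hybridisation) and the threshold (1.5-fold, 3-fold).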

Additional observations from a re-analysis of the deposited data

How the results depend on the processing

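The members' median log2 ratio, 0.43 as reported, lay between 0.35 and 0.67 over the 9 alternatives to scaling, floor and probe set choice. It was highest with a 25th percentile floor or no floor, where Fosb and Junb entered and Atf3 was at 1.69. The number of members past 2-fold in the external direction, 1 as reported, was then 2, which added Atf3, while the share of all genes rose from 2.10% to 4.80% and 8.19%. It was 0 for a 75th percentile floor or the pseudocount, where the share of all genes was 1.11% and 1.27%. It was 3 for a 1.5-fold threshold and 0 for a 3-fold threshold. In the internal direction it was 0 under every alternative run. Low signal limits Atf3, Fosb and Junb. No paired analysis was possible because each group has 1 array and no result comes from a test.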

Other observations

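Heat shock genes, which like immediate early genes can respond to handling and temperature, had a median log2 ratio of -0.11 over 10 measured genes, with 5 above 0 and 5 below. The median was 0.14 after quantile normalization and 0.12 after loess, so the list had no settled direction. The inducible chaperone genes Hspa1a and Hspa1b had a bound of 0.42 and a ratio of 0.34. Hspb1, a small heat shock protein gene that muscle also makes, read 3218 internal and 1322.5 external, 2.43-fold in the internal direction, with a log2 ratio of -1.27 at its other probe set. Hsph1 was next lowest at -0.45, with 0.07 at its other probe set.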
